A study of Equus caballus with 19 samples.

Results

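The genes described here are 10 sensing genes of the Toll-like and NOD receptor pathways: TLR2, TLR3, TLR4, CD14, LY96, MYD88, NOD1, NOD2, RIPK2 and MALT1. They were taken by name from the 29196 gene names of the deposited expression tables, in which all 10 are listed. The samples were equine tenocytes, the fibroblasts of tendon, isolated after death from the superficial digital flexor tendon of adult horses, with 1 line from each horse. Every culture was a 3D gel of bovine type I collagen kept for 14 days. In the first batch, lines 1 to 5 were each grown without added cytokine (control) and with 1 nM IL-1β, which gave 10 libraries. In the second batch, lines 6 to 8 each gave 3 libraries, 9 in all: control, the same dose of IL-1β, and that dose together with IL1Ra, the receptor antagonist of IL-1, at 100 ng/ml. No library had IL1Ra alone, so an effect of the antagonist without IL-1β cannot be read from these data.

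Toll-like receptors bind microbial products and, in injured tissue, molecules released from damaged cells and matrix. TLR2 and TLR4 act at the cell surface and TLR3 recognises double-stranded RNA in endosomes. TLR4 is joined by LY96, also called MD-2, which holds the lipid part of bacterial lipopolysaccharide, and by CD14, which delivers it. MYD88 is the adaptor of most Toll-like receptors and also of the IL-1 receptor, so it stands on the path that IL-1β itself uses. NOD1 and NOD2 sense fragments of the bacterial cell wall in the cytosol and pass the signal to the kinase RIPK2. MALT1 is a protease and scaffold that works with CARD proteins and BCL10. Both branches lead to NF-κB.

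The values are normalised counts, which are gene counts that the authors scaled so that the libraries of a batch can be compared. Their sum was 43.4 to 49.2 M per library for lines 1 to 5 and 25.0 to 34.6 M for lines 6 to 8, so low genes are less precise in the second batch. The batches were normalised separately and were compared only through the change within each. Of 9 tenocyte markers 8 were used here, and TNMD was listed at 0 in 18 of 19 libraries. With IL-1β, 6 of the 7 tenocyte markers tested in the first batch were called lower (the rule is given below), where 7.90% of all genes tested were. These were COL1A1, COL1A2, COMP, MKX, SCX and THBS4. DCN went the other way and was higher in 5 of 5 lines. Its log2-fold change was 0.73 (adjusted p = 0.0626, or 0.00725 with the line as a block, limma). In the second batch DCN was higher in 3 of 3 lines, by 1.61 (adjusted p = 0.498, limma). Of 9 leukocyte markers, AIF1 and CD79A were listed at 0 in 19 of 19 libraries, CD3E was listed at 0 in 18, and PTPRC, the pan-leukocyte gene CD45, did not exceed 6.46 normalised counts. CD68 was the exception: it rose with IL-1β in the first batch (log2-fold change 2.64, adjusted p = 0.00265 with limma). The 9 markers summed to 58.3 to 182 normalised counts in the first-batch controls and 300.0 to 1388 with IL-1β, and without CD68 to 0 to 42.7 and 4.02 to 57.3. In lines 6 to 8 the sums were 73.7 to 291 in the control, 190 to 1792 with IL-1β and 125 to 1406 with both agents, and 4.30 to 14.1, 8.59 to 23.6 and 4.25 to 28.0 without CD68. The part of CD68-bearing cells in the results below was not tested. In bulk RNA, fewer cells of a type and less RNA per cell cannot be told apart. Of 3 epithelial markers, CDH1 was high in the first-batch controls, at 1413 to 3904 normalised counts, and fell with IL-1β. In the second-batch controls CDH1 was at 10.3 to 107. EPCAM was listed at 0 in 18 of 19 libraries, and KRT5 in 14 of 19 with a highest value of 14.4. Of 5 endothelial markers, 2 were tested and 0 were called without the line as a block. With it PECAM1 was called higher with IL-1β in the first batch (1.68 on the log2 scale, adjusted p = 0.0455, limma; higher in 5 of 5 lines). VWF went the other way, at −1.53 (adjusted p = 0.0563 with the block, limma), and was higher in only 1 of 5 lines. In the second batch VWF was at −1.67 and higher in 0 of 3 lines. CDH5, KDR and TEK reached at most 3.49, 4.82 and 10.1 normalised counts in any library. In the second batch the block fit called CD68 higher (1.89, adjusted p = 0.0369) and SCX and COMP lower (−3.18 and −3.69, adjusted p = 0.0223 and 0.0228).

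**Figure D1:**
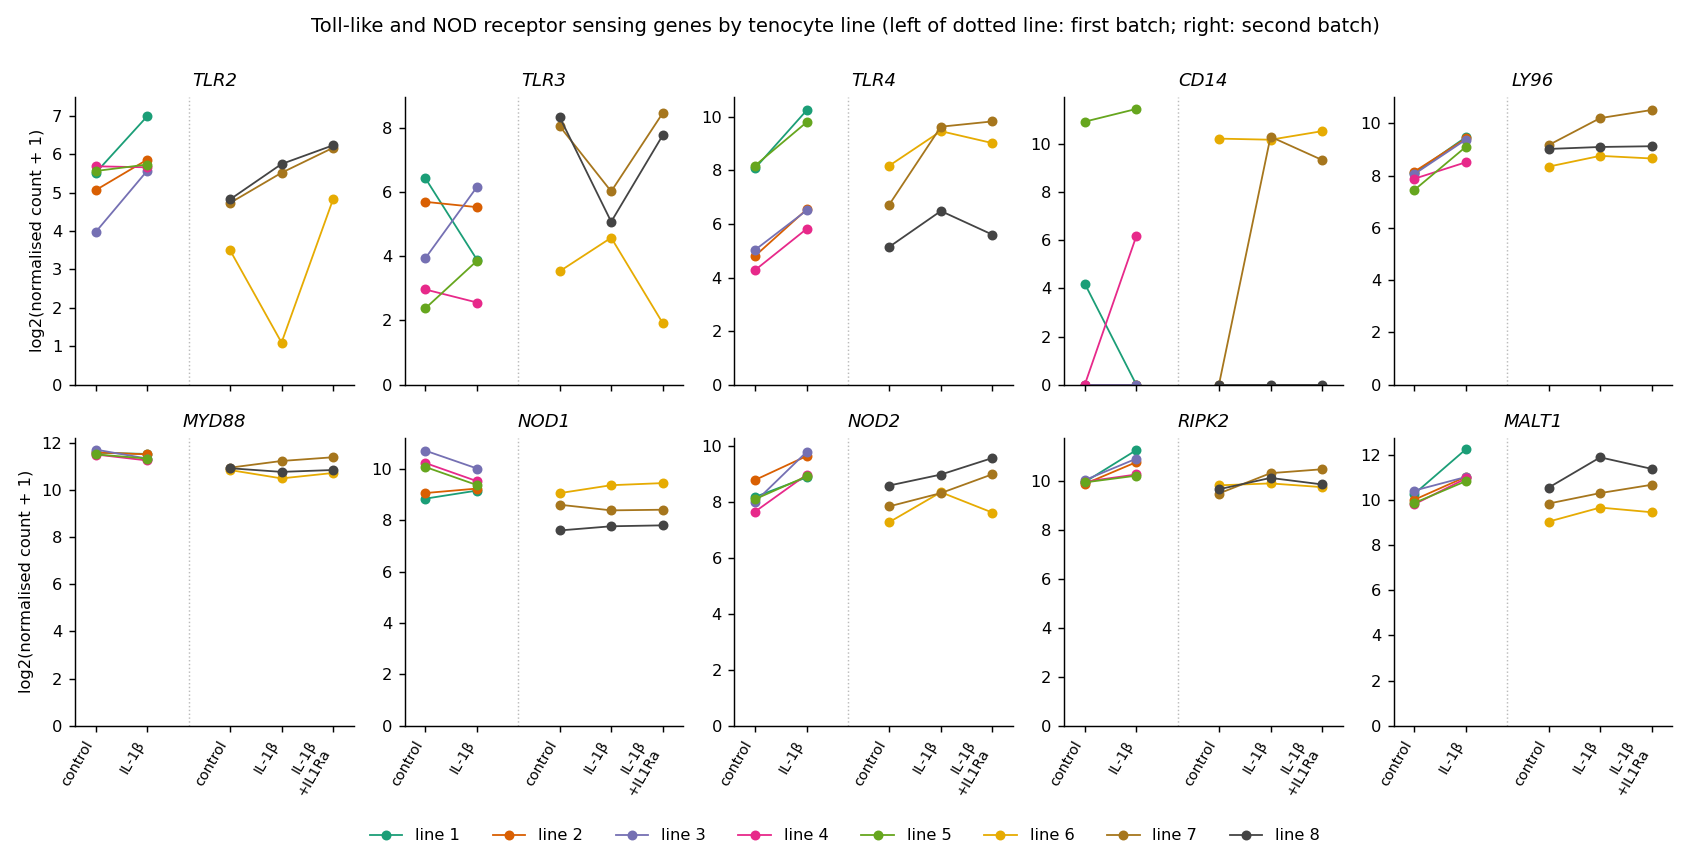
Each panel plots 1 sensing gene as log2(normalised count + 1) on the y axis, with 1 point per library, the condition on the x axis, and a line joining the libraries of a tenocyte line. LY96, NOD2, RIPK2, MALT1 and TLR4 are higher with IL-1β than in the control of the same line in 8 of 8 lines, the TLR3 lines cross, and several CD14 lines overlie each other at 0.

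With IL-1β in the first batch, LY96, NOD2 and MALT1 were called higher, and 0 of the sensing genes were called lower. A gene was called where limma gave a Benjamini-Hochberg adjusted p under 0.05 and the log2-fold change was at least 1 in size. The filter on low values passed 9 of the 10 genes, and CD14 was not among them. Called higher were 3 of these 9, where 4.91% of the 14719 genes tested were called higher, and 0 were called lower, where 7.90% of all genes were. An unadjusted p under 0.05 was reached by 5 of 9, where 39.5% of all genes tested reached it. The control and IL-1β libraries did not overlap for 4 of the 9, all higher with IL-1β: LY96, NOD2, RIPK2 and MALT1. Of all genes tested, 9.34% were higher without overlap. TLR4 joined these 4 as higher with IL-1β in every line, which makes 5 of the 9, where 24.8% of all genes tested were. The median log2-fold change of the 9 was 0.80, against −0.0034 over all genes tested. Fold changes are on the scale of log2(normalised count + 1), which understates the change of low genes.

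The libraries of 1 line are from 1 horse, so the fit was repeated with the line as a block, which compares each IL-1β library with the control of its own line. It called 4 of the 9 higher, against 6.0% of all genes, and 0 lower, against 10.2%. The gene it added was TLR4, and 7 of 9 had an unadjusted p under 0.05, as did 51.9% of all genes in that fit.

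TLR4, the receptor for lipopolysaccharide, was at 269, 27.0, 31.7, 18.4 and 288 normalised counts in the controls of lines 1 to 5. With IL-1β it was at 1207, 92.1, 89.8, 55.3 and 887. Each was higher than its control, yet the groups overlapped, because lines 1 and 5 had more TLR4 in the control than lines 2, 3 and 4 had with IL-1β. The log2-fold change was 1.70 ± 1.10 (SE, n = 5 lines) and did not pass the test without a block (adjusted p = 0.279, limma). With the line as a block the SE was 0.162 and TLR4 was called (adjusted p = 6.25e-04), with a 95% interval of 1.32 to 2.09. Within lines the log2 ratio of IL-1β to control was 2.16, 1.73, 1.47, 1.54 and 1.62, a narrow range beside the 15.7-fold range of the controls.

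The second-batch controls, lines 6, 7 and 8, had TLR4 at 287, 104 and 34.4 normalised counts. With IL-1β it was at 703, 789 and 88.3. The log2 ratios within these lines were 1.29, 2.91 and 1.34, so TLR4 was higher with IL-1β in 8 of 8 lines over both batches. The log2-fold change of 1.84 ± 1.31 (SE, n = 3 lines) did not pass the test (adjusted p = 0.696, or 0.0689 with the line as a block, limma).

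TLR2, which recognises bacterial lipoproteins, was at 44.7, 32.4, 14.7, 50.3 and 46.2 normalised counts in the controls of lines 1 to 5, and at 126, 57.0, 46.5, 49.4 and 52.0 with IL-1β. It was higher with IL-1β in 4 of 5 lines, and the groups overlapped. The log2-fold change of 0.80 ± 0.40 (SE, n = 5 lines) did not pass the test (adjusted p = 0.166, or 0.0760 with the block, limma). Lines 6 to 8 had TLR2 at 10.4, 25.5 and 27.2 in the controls and at 1.14, 44.7 and 52.5 with IL-1β. Lines 7 and 8 were higher with IL-1β and line 6 was lower, with the lowest TLR2 value of its batch. The log2-fold change there was −0.23 ± 1.18 (SE, n = 3 lines), and without line 6 it was 0.85, with an adjusted p of 0.396.

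TLR3, the sensor of double-stranded RNA, had no common direction. It was at 84.7, 50.6, 14.3, 6.80 and 4.199 normalised counts in the controls of lines 1 to 5 and at 13.8, 45.0, 70.2, 4.89 and 13.5 with IL-1β. Lines 3 and 5 were higher with IL-1β and lines 1, 2 and 4 were lower, with log2 ratios from −2.53 in line 1 to 2.22 in line 3. Their mean change on the log2 scale was 0.12 ± 0.91 (SE, n = 5 lines), with an adjusted p of 0.941 (limma), and the value turned to −0.41 without line 3 and to −0.22 without line 5.

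Among lines 6 to 8, TLR3 was at 10.5, 263 and 321 normalised counts in the controls and at 22.8, 63.6 and 32.6 with IL-1β. It was lower with IL-1β in lines 7 and 8, the 2 lines with high controls, and higher in line 6. On the log2 scale the change was −1.42 ± 1.84 (SE, n = 3 lines), with an adjusted p of 0.868 (limma). Without line 6 it was −2.65, with an adjusted p of 0.0490, so the call rested on which lines were in the fit.

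LY96, the lipopolysaccharide-binding partner of TLR4, had the smallest adjusted p of the sensing genes in the first batch without a block. With the line as a block that of TLR4 was smaller (6.25e-04, against 0.00154 for LY96, limma). It was at 272, 283, 265, 234 and 174 normalised counts in the controls of lines 1 to 5 and at 708, 682, 663, 363 and 549 with IL-1β. All 5 IL-1β libraries stood above all 5 controls, and the means were 246 ± 44.2 and 593 ± 142 (SD, n = 5 lines). The log2-fold change was 1.25 ± 0.22 (SE, n = 5 lines; adjusted p = 0.00229, limma). Second-batch LY96 was at 323, 572 and 516 in the controls of lines 6 to 8 and at 430, 1171 and 544 with IL-1β. Each line was higher with IL-1β, line 8 by a log2 ratio of only 0.08 and line 7 by 1.03, and the groups overlapped. The log2-fold change there was 0.51 ± 0.54 (SE, n = 3 lines), with an adjusted p of 0.829 (limma).

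CD14, which delivers lipopolysaccharide to TLR4, was either listed at 0 or present, at up to 2811 normalised counts. In the controls of lines 1 to 5 it was at 17.4, 0, 0, 0 and 1947, and with IL-1β at 0, 0, 0, 71.4 and 2811. Lines 6 to 8 were at 1195, 0 and 0 in the controls, at 1158, 1262 and 0 with IL-1β, and at 1482, 645 and 0 with IL-1β plus IL1Ra. CD14 was listed at 0 in 10 of 19 libraries, among them every library of lines 2, 3 and 8. Lines 5 and 6 held high values in every condition, and line 7 was at 0 in the control and high in both treated cultures.

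The second-batch log2-fold change of 3.42 for CD14 with IL-1β (adjusted p = 0.854, limma) came from line 7, and without that line it was −0.02. The lines with high CD14 were among those with high TLR4, but line 1, with the highest TLR4 value of the first batch at 1207, had CD14 at 0 in that library. Leukocyte markers other than CD68 summed to at most 57.3 normalised counts in any library. That sum was in line 5 with IL-1β, the first-batch library with the most CD14, and most of it was ITGAM, at 55.3. Line 5 in the control had ITGAM at 42.7. The part of such cells in the CD14 values was not tested.

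A listed 0 can also be a failed estimate. NDUFA2, a subunit of the respiratory chain, lies near CD14 in the RefSeq order of horse genes. It was listed at 0 in 13 of 19 libraries, with a highest value of 38.8. TMCO6, the gene between them, was listed at 0 in 18 of 19. Both were picked after their values were seen. Of the 10424 gene names above 500 in any library of the first batch, 67 were listed at 0 in others. In the second batch 96 of 9790 such names were. The cause of the CD14 zeros was not tested. Because values at 0 and high values stood side by side, no mean of CD14 over lines is given. Its fitted values, which also enter the second-batch medians and counts over the 10 genes, rest on such zeros.

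MYD88, the shared adaptor, was at similar levels in all libraries of the first batch. It was at 3086, 3114, 3379, 2926 and 2936 normalised counts in the controls of lines 1 to 5 and at 2974, 2938, 2595, 2454 and 2597 with IL-1β. All 5 lines were lower with IL-1β, by log2 ratios of −0.05 to −0.38. The fitted change was −0.19 ± 0.08 on the log2 scale (SE, n = 5 lines) and did not pass the test (adjusted p = 0.104, limma). Its 95% interval of −0.37 to −0.01 leaves no room for a 2-fold change in either direction. Second-batch means were 1930 ± 69.0 in the control and 1873 ± 496 with IL-1β (SD, n = 3 lines), with line 7 higher and lines 6 and 8 lower, and a log2-fold change of −0.08 ± 0.24 (SE, n = 3 lines; adjusted p = 0.961, limma).

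NOD1, the receptor for diaminopimelic acid peptides, split by line. It was at 459, 535, 1681, 1204 and 1081 normalised counts in the controls of lines 1 to 5 and at 572, 604, 1038, 737 and 663 with IL-1β. Lines 3, 4 and 5, which had the highest control values, were lower with IL-1β by log2 ratios of −0.69 to −0.71, and lines 1 and 2 were higher by 0.31 and 0.17. Its log2-fold change was −0.32 ± 0.35 (SE, n = 5 lines), with an adjusted p of 0.526 (limma). For lines 6 to 8 it was 0.08 ± 0.57 (SE, n = 3 lines; adjusted p = 0.981, limma).

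NOD2, the receptor for muramyl dipeptide, rose in the first batch. It was at 287, 437, 254, 199 and 271 normalised counts in the controls of lines 1 to 5 and at 466, 790, 877, 498 and 478 with IL-1β. The lowest IL-1β library stood above the highest control, and line 3 changed most. The log2-fold change was 1.09 ± 0.25 (SE, n = 5 lines; adjusted p = 0.00968, limma), and without line 3 it was 0.92, under the fold threshold, with an adjusted p of 0.0416. Lines 6 to 8 were at 153, 227 and 381 in the controls and 322, 315 and 499.5 with IL-1β. All 3 lines were higher with IL-1β, with a log2-fold change of 0.64 ± 0.53 (SE, n = 3 lines; adjusted p = 0.763, limma).

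RIPK2, the kinase that NOD1 and NOD2 recruit, was the most even of the sensing genes in the first-batch controls, at 991, 939, 1046, 1000.1 and 981 normalised counts. With IL-1β it was at 2452, 1743, 1924, 1228 and 1187. No IL-1β library reached down to the controls, and lines 1, 2 and 3 moved by a larger log2 ratio, 0.88 to 1.31, than lines 4 and 5, at 0.30 and 0.27. The log2-fold change of 0.73 ± 0.19 (SE, n = 5 lines) passed the adjusted p (0.0150, limma) but not the fold threshold. Lines 6 to 8 had RIPK2 at 903, 716 and 808 in the controls and at 953, 1275 and 1114 with IL-1β, and it was the 1 sensing gene whose groups did not overlap there. Of all genes of that batch, 8.82% were higher without overlap. Its log2-fold change was 0.46 ± 0.23 (SE, n = 3 lines; adjusted p = 0.504, limma).

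MALT1, the protease of the CARD, BCL10 and MALT1 complex, rose in the first batch from 1245, 1039, 1375, 904 and 940 normalised counts in the controls of lines 1 to 5 to 4922, 2102, 2093, 1997 and 1842 with IL-1β. Line 1 stood far above the other IL-1β libraries, which lay close together, and all 5 were above every control. The log2-fold change was 1.14 ± 0.26 (SE, n = 5 lines; adjusted p = 0.00817, limma). Without line 1 it was 0.93, under the fold threshold, with an adjusted p of 0.00323. Lines 6 to 8 had MALT1 at 529, 922 and 1505 in the controls and at 815, 1273 and 3822 with IL-1β, higher in 3 of 3 lines. The log2-fold change there was 0.81 ± 0.69 (SE, n = 3 lines; adjusted p = 0.773, or 0.0722 with the line as a block, limma).

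**Figure D2:**
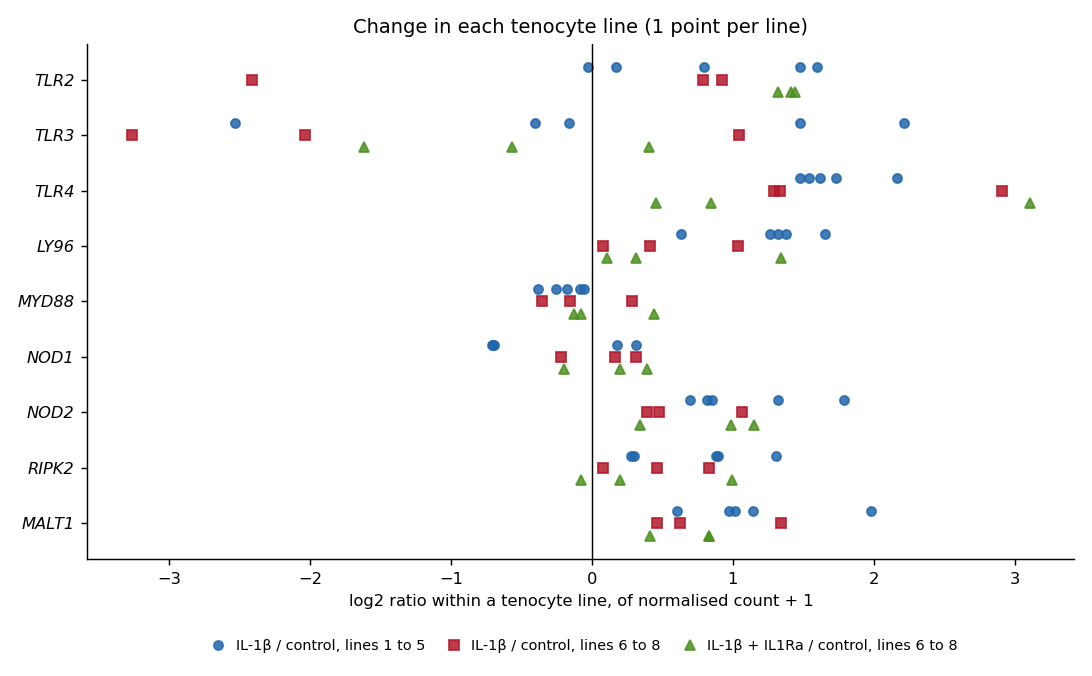
The x axis is the log2 ratio of normalised count + 1 between a treated culture and the control of the same tenocyte line, with 1 point per line and 1 row per gene, CD14 left out. For TLR4 all 8 IL-1β points lie between 1.29 and 2.91, whereas the TLR3 points spread from −3.26 to 2.22.

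In the second batch, 0 of the 10 sensing genes were called with IL-1β against control. That comparison called few genes of any kind, 0.341% of 16705 (5.18% with the line as a block, which called 0 of the 10 as well). An unadjusted p under 0.05 was reached by 0 of 10 without the block, where 11.4% of all genes reached it, and by 2 with it, TLR4 and MALT1, where 22.2% did, a share close to that of the 10. TLR4, LY96, NOD2, RIPK2 and MALT1 were higher with IL-1β in 3 of 3 lines, the same 5 genes that were higher in 5 of 5 lines of the first batch, where 19.1% of all second-batch genes tested were. The median log2-fold change of the 10 was 0.48, against −0.0084 over all genes. Whether the batches differ in their response was not tested.

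**Figure D3:**
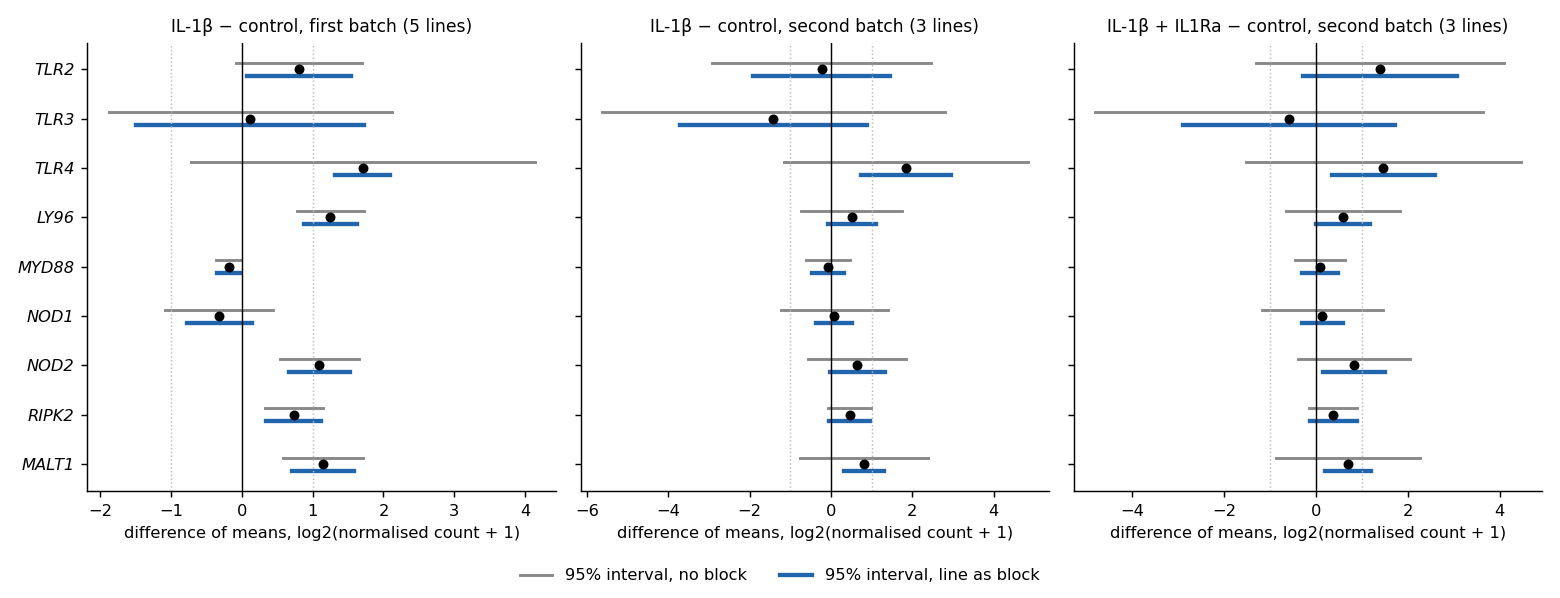
Points are differences of group means on the log2(normalised count + 1) scale on the x axis for 9 sensing genes, grey bars are 95% intervals without a block, blue bars those of the blocked fit, and dotted lines mark a log2-fold change of 1 in either direction. In the first batch the TLR4 bar shrinks from −0.73 to 4.14 without the block to 1.32 to 2.09 with it.

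Adding IL1Ra to IL-1β asks how much of the IL-1β change the antagonist takes away. With both agents against control, 0 of the 10 sensing genes were called, where 0.0120% of all genes tested were (0.251% with the line as a block, and again 0 of the 10). An unadjusted p under 0.05 was reached by 0 of 10, where 5.67% of all genes reached it, and with the block by TLR4, NOD2 and MALT1, where 13.4% of all genes did. Means were higher than in the control for 9 of the 10, with TLR3 the exception, and the median log2-fold change was 0.64, against 0.01 over all genes.

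TLR2 was the gene of this set whose values with both agents did not overlap the controls, at 27.4, 70.7 and 74.0 normalised counts in lines 6 to 8 against 10.4, 25.5 and 27.2. The log2 ratios to control within the lines were 1.32, 1.44 and 1.41, although the fitted log2-fold change of 1.39 ± 1.18 (SE, n = 3 lines) did not pass the test (adjusted p = 0.9997, or 0.470 with the block, limma). Of all genes tested, 5.79% were higher than control without overlap. Higher in 3 of 3 lines were TLR2, TLR4, LY96, NOD2 and MALT1, 5 of the 10, where 20.1% of all genes tested were.

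Between IL-1β and IL-1β plus IL1Ra, 0 of the 10 sensing genes were called, and 0 had an unadjusted p under 0.05, with limma in either fit. The share of all genes called was 0.00% without the block and 0.00599% with it. TLR2 was lower with IL-1β alone than with both agents in 3 of 3 lines, with a difference of −1.62 on the log2 scale and a 95% interval of −4.33 to 1.08. Most of that size came from line 6, with TLR2 at only 1.14 normalised counts with IL-1β alone and a log2 ratio of −3.73. In lines 7 and 8 the log2 ratios were −0.65 and −0.49. For TLR4 the difference was 0.38, with an interval of −2.62 to 3.37, and for LY96 it was −0.08, with an interval of −1.32 to 1.16. Without the block, intervals this wide hold differences of 2-fold and more in either direction. With the line as a block they were −3.30 to 0.06 for TLR2, −0.74 to 1.49 for TLR4 and −0.67 to 0.51 for LY96, the last within 2-fold either way. Without the block they were narrower for RIPK2, from −0.44 to 0.61, and for MYD88, from −0.71 to 0.40.

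Line by line, TLR4 with both agents was at 516, 905 and 47.4 normalised counts in lines 6, 7 and 8. As a share of the log2 change that IL-1β alone gave, 65.4% was left in line 6, 107% in line 7 and 34.0% in line 8. For NOD2 the share was 31.8% in line 6, for MALT1 61.9% in line 8, for LY96 130% in line 7 and for CD14 90.6% in line 7. These shares are computed only where the change with IL-1β was at least 1 on the log2 scale in that line, which picks lines with a large change, and they have no replicate of their own. In the lines under that limit the order could be the other way: NOD2 was lower with IL-1β alone than with both agents in lines 7 and 8, by log2 ratios of −0.67 and −0.59, and so was MALT1 in line 7, at −0.37. TLR2 in line 6, which was lower than control with IL-1β and higher with both agents, had a share of −54.9%. TLR3 in lines 7 and 8 was far below its controls with IL-1β alone and stood nearer to them with both agents, at 349 and 216 normalised counts, which left −20.1% and 17.4% of the change. In line 6, where TLR3 was 22.8 with IL-1β, it was 2.77 with both, a share of −154%.

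The lines differed in some sensing genes more than in others before any cytokine was added. In the first-batch controls the SD over lines, on the log2 scale, was 1.89 for TLR4 and 1.73 for TLR3, larger than for 98.1% and 97.6% of the genes tested. For RIPK2 it was 0.06 and for MYD88 0.08, larger than for only 0.951% and 3.78% of genes. The 5 controls spanned 20.2-fold for TLR3 and 15.7-fold for TLR4, but 1.15-fold for MYD88 and 1.11-fold for RIPK2. Among lines 6 to 8 the 3 controls spanned 30.4-fold for TLR3, 8.37-fold for TLR4, 1.07-fold for MYD88 and 1.26-fold for RIPK2. The receptors TLR3 and TLR4 were thus uneven between lines in both batches, and MYD88 and RIPK2 were more even, RIPK2 above 19.7% of genes in the second. These 4 are the extremes of the first batch, where LY96 was above 50.4% of genes and NOD2 above 64.4%. They also differ in level, with first-batch control means of 32.1 for TLR3, 127 for TLR4, 3088 for MYD88 and 991 for RIPK2. The shares are over genes of all levels. Over all genes the median SD was 0.28 for lines 1 to 5 and 0.37 for lines 6 to 8.

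For each sensing gene except CD14, which did not pass the first-batch filter, the gene with the most similar profile was taken as the highest Pearson correlation of log2 values over the 10 libraries of the first batch, and the same pair was then read over the 9 libraries of the second. Candidates were the genes that passed the first-batch filter, without the sensing genes themselves and without names that begin with LOC or a digit. The libraries of a batch share lines and treatments, so these are descriptions. TLR3 was most like PSMB8, a subunit of the immunoproteasome, at r = 0.961 over 10 libraries, and this pair reached r = 0.953 over the 9 libraries of the second batch. PSMB8 was at 2445 normalised counts in the control of line 1 and at 322 with IL-1β, and at 222 and 2083 in line 3, the same directions as TLR3. The directions with IL-1β were also shared in lines 5 to 8, but not in lines 2 and 4. There the log2 ratios to control were 0.81 and 0.97 for PSMB8 and −0.16 and −0.40 for TLR3. In line 6 with both agents they were 0.82 for PSMB8 and −1.61 for TLR3. IRF7, a transcription factor of the interferon response, and NLRC5, an activator of MHC class I genes, were chosen after their values were seen. For TLR3 with IRF7 r was 0.900 and 0.927 in the 2 batches, and with NLRC5 it was 0.862 and 0.951.

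**Figure D4:**
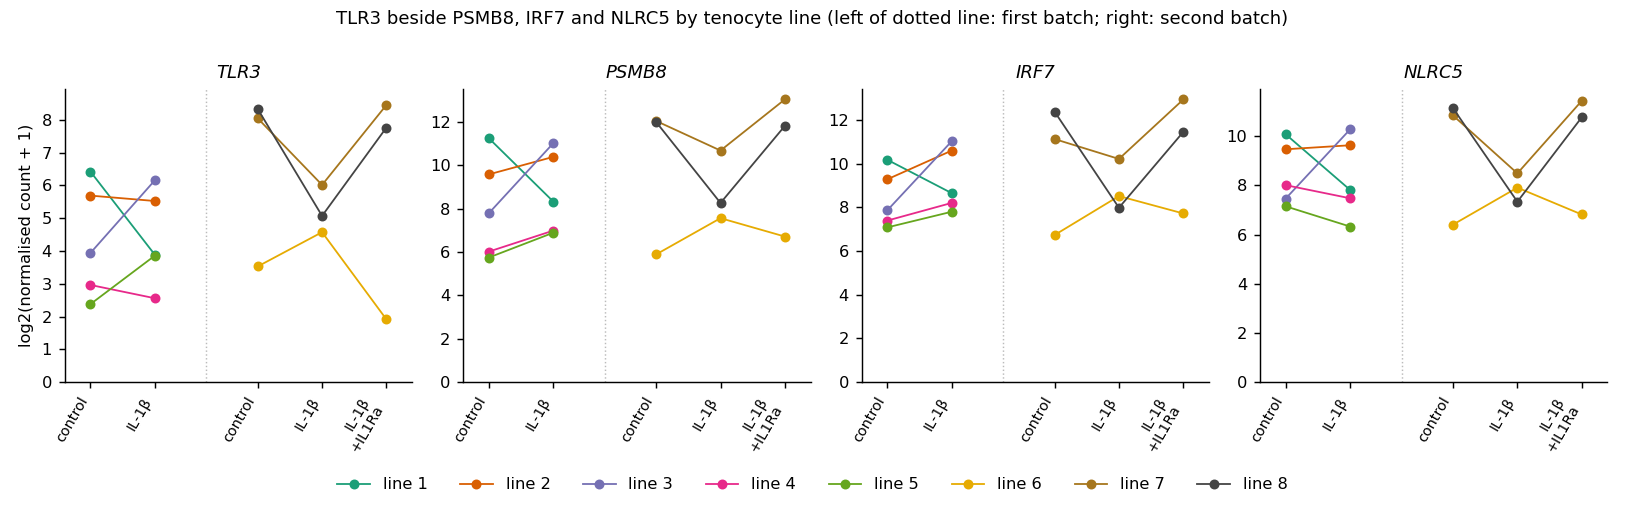
Each panel plots log2(normalised count + 1) of 1 gene against condition, with a line joining the libraries of a tenocyte line. In all 4 genes line 1 goes down and line 3 goes up with IL-1β, and lines 7 and 8 are lower with IL-1β alone than in the control or with both agents. In lines 2 and 4 TLR3 goes down with IL-1β, whereas PSMB8 and IRF7 go up.

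Most other pairs were less alike in the second batch. RIPK2 with FBXO7 had r = 0.979 and then 0.837, LY96 with COPRS 0.983 and then 0.770, and MYD88 with RPL32 0.976 and then 0.665. MALT1 was most like UBE2E1, at 0.987 and then 0.557, and TLR2 most like ATP8A1, at 0.936 and then 0.459. NOD2 with PRPF31 went from 0.979 to 0.316, TLR4 with CSK from 0.923 to 0.103, and NOD1 with CCR10 from 0.965 to −0.448. TLR3 and PSMB8 were the pair with the highest r in the second batch, which had no part in choosing the pairs.

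The other genes of the pathway moved unevenly with IL-1β in the first batch. Of 18 adaptors and kinases, all tested, 3 were called higher and 0 were called lower. Called higher were TICAM1, the adaptor of TLR3 and TLR4 also called TRIF, the kinase IRAK2, and IRAK3, a kinase-like brake on the pathway. TICAM1 went from 541 ± 117 to 1700 ± 387 normalised counts (SD, n = 5 lines), a log2-fold change of 1.65 (adjusted p = 2.04e-04, limma). IRAK2 had a log2-fold change of 1.76 (adjusted p = 2.54e-04) and IRAK3 of 1.28 (adjusted p = 0.00112). The 3 called stand beside the 4.91% of all genes called higher, and the 0 called lower beside 7.90%. The adjusted p alone was passed by 10 of the 18, where 27.7% of all genes tested passed it, and the median log2-fold change of the list was 0.15. Among these 10, IRAK1 and MAP3K7 were lower with IL-1β in 5 of 5 lines, and the others were higher. The log2-fold changes of IRAK1 and MAP3K7 were −0.63 and −0.59 (adjusted p = 0.0030 and 0.0024, limma). Both were under the fold threshold and were named after their values were seen.

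Among the partners of NOD1, NOD2, RIPK2 and MALT1, 7 of the 8 described here were tested, 3 were called higher and 1 was called lower. Of all genes tested, 4.91% were called higher and 7.90% lower. TNFAIP3, the ubiquitin-editing enzyme A20 that restrains NF-κB, went from 513 ± 257 to 9604 ± 2035 normalised counts (SD, n = 5 lines), a log2-fold change of 4.39 (adjusted p = 4.49e-05, limma). BIRC3 and BIRC2, ubiquitin ligases that act on RIPK2, rose by 3.18 and 1.01 on the log2 scale (adjusted p = 0.00855 and 0.0177). CARD10, which assembles with BCL10 and MALT1, fell by 1.05 on the log2 scale (adjusted p = 0.0282) and was lower in 4 of 5 lines. The median log2-fold change of the list was 0.11.

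Of 7 other Toll-like receptors 4 were tested and 0 were called. For this list and those that follow, 4.91% of all genes tested were called higher and 7.90% lower. With 3 or 4 genes tested, 0 called is close to these shares. TLR6 was higher with IL-1β in 5 of 5 lines, by 0.87 on the log2 scale (adjusted p = 0.0242, limma), and TLR1 was lower in 5 of 5, at −0.69 (adjusted p = 0.0173), both under the fold threshold and named after their values were seen. TLR1 and TLR6 are similar in sequence, so reads could have been split between them and their values are uncertain. The list's median was −0.35. Of 7 co-receptors and trafficking genes 3 were tested, with 0 called and a median of 0.22, and the other 4, LBP, CD36, CD180 and LY86, reached at most 2.94 normalised counts in any library. Of 7 other NOD-like receptor and inflammasome genes 3 were tested, and NLRP3 rose by 3.76 on the log2 scale (adjusted p = 0.00279), with a list median of 0.29.

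**Figure D5:**
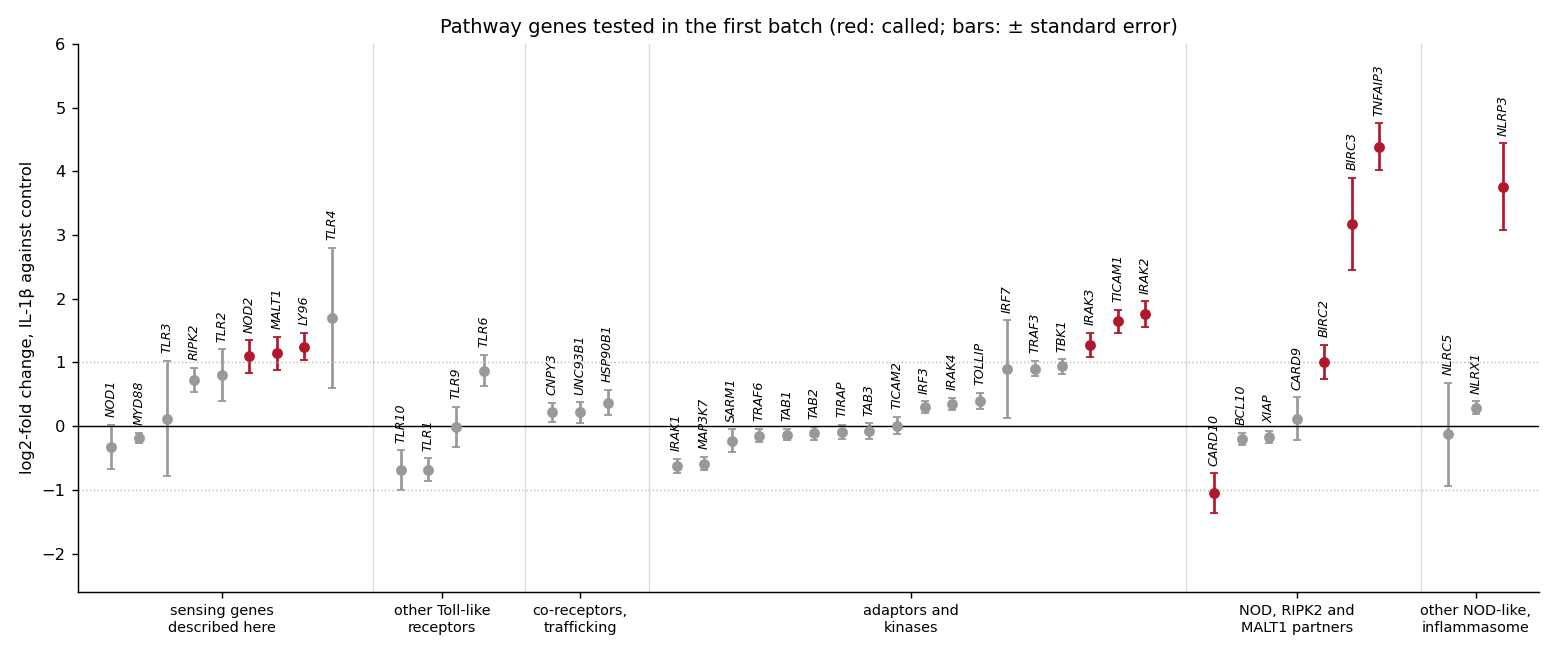
The y axis is the log2-fold change with IL-1β in lines 1 to 5 (points, ± SE), with the genes tested arranged by list on the x axis and genes that were called in red. The called sensing genes NOD2, MALT1 and LY96 lie between 1.09 and 1.25, below TNFAIP3 at 4.39, NLRP3 at 3.76 and BIRC3 at 3.18.

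In the second batch, TNFAIP3 was the 1 gene of these 5 lists called with IL-1β (log2-fold change 4.75, adjusted p = 0.0171, limma). Of all genes tested there, 0.341% were called, and 5.18% with the line as a block. With a block for line, TICAM1 was called as well (1.64, adjusted p = 0.00446), as was NLRP3 (2.42, adjusted p = 0.0174). With both agents against control TNFAIP3 was at a log2-fold change of 2.79 and was called only with the block (adjusted p = 0.0267, and 0.340 without it). TNFAIP3 averaged 252 ± 90.9 normalised counts in the control, 7125 ± 3106 with IL-1β and 1900 ± 984 with both agents (SD, n = 3 lines), lower with both agents than with IL-1β alone in 3 of 3 lines. The difference between the treated groups was 1.96 on the log2 scale and did not pass the test (adjusted p = 0.9999, or 0.152 with the block, limma).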

How the data were processed

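RNA from 19 tenocyte cultures was sequenced by the authors. Per the labels and the study's methods, reads were assigned with Salmon (EquCab3.0 transcripts), tximport gave gene counts, and DESeq2 1.36 in R 4.2.1 scaled each batch. The deposited signal values are these normalised counts, 1 table per batch. All columns were mapped to samples. Whole reads were not recovered (82.1% to 86.9% of low values lay within 0.1 of a whole number of reads), so no count model was fitted.

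Computed here, within each batch: limma 3.58.1 with trend in R 4.3.3 on log2(normalised count + 1), over genes that reached 10 normalised counts in 5 or more libraries (in 3 or more for lines 6 to 8), with Benjamini-Hochberg adjustment over all genes tested. The second batch was 1 fit of 9 libraries. The fits were tested on simulated data. Genes were called at an adjusted p under 0.05 and a log2-fold change of at least 1 in size. The methods name no block, so the tenocyte line as a replicate block was an alternative, printed where it changes a call. Libraries of 1 line come from 1 horse, and deviations from the condition means correlated within lines at 0.35 to 0.58 (5 pairs, lines 1 to 5) and 0.54 to 0.79 (9 pairs, lines 6 to 8), against at most 0.29 and 0.25 between lines.

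The members and gene lists were chosen with earlier results of these data known. Named are the 10 members, the most similar gene of each but CD14, and pathway genes that were called. Other genes are named with a note. RefSeq's horse gene table, from a later assembly, was used only for names (10 of 10 matched) and neighbours. PYCARD and COL3A1 were not analysed here, and 1 gene of the pathway lists is not reported here and was left out of their counts.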

Additional observations from a re-analysis of the deposited data

Results flagged for a closer look

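In groups of 4 to 10 libraries, the gap of the highest or lowest library to its neighbour was compared with the range of the group by Dixon's criterion at the 95% level, which chance passes in about 1 in 20 groups. Of 20 groups (10 genes, controls and IL-1β libraries of the first batch), 2 passed, both in the IL-1β library of line 1. MALT1 was at 4922 normalised counts there, against at most 2102 in the other lines, and the gap was 0.865 of the range. TLR2 was at 126, against at most 57.0, and the gap was 0.798 of the range. Without line 1 the MALT1 log2-fold change was 0.93 (adjusted p = 0.00323, limma), under the fold threshold.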

How the results depend on the processing

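With the tenocyte line as a replicate block TLR4 in the first batch passed the test, with an unchanged log2-fold change of 1.70 (adjusted p = 6.25e-04, limma), and no call of another sensing gene changed in any comparison. The count called higher in the first batch stayed between 2 and 4 under the alternatives (other pseudocounts, filters, scaling, no trend, the block, the adjusted p alone, each line left out), and was 2 without line 1 or line 3. Over all genes, the block moved the second-batch counts from 57 to 865 (IL-1β), from 2 to 42 (both agents) and from 0 to 1 (between treatments). Leaving out line 6 gave 339, 61 and 10, and leaving out line 7 or 8 gave 0. The IL-1β count there was 34 without trend and 32 in a fit of only the compared conditions, and that with both agents was 1 after rescaling and 0 in a fit of 2 conditions. The adjusted p alone gave 4078 in place of 1885 in the first batch, and leaving out line 5 gave 1251. The cause of these shifts was not tested.

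Directions that turned belonged to changes that had not passed the test. In the second batch with IL-1β, TLR2 was 0.14 with a pseudocount of 8 and NOD1 −0.10 after rescaling to equal library sums, which moved the median of all genes from −0.01 to −0.19. After rescaling, MYD88 with both agents was −2.5e-04, and RIPK2 between treatments −0.0154, with the median at −0.11. With each line left out, first-batch TLR3 ranged from −0.41 to 0.78. In the second batch with IL-1β, the count of sensing genes called lower ranged from 0 to 1 (TLR3 without line 6), TLR2 from −0.81 to 0.85, MYD88 from −0.26 to 0.0650, NOD1 from −0.0286 to 0.24 and CD14 from −0.0227 to 5.13. MYD88 with both agents ranged from −0.10 to 0.18. Between treatments, CD14 ranged from −0.18 to 0.31, LY96 from −0.17 to 0.0359, NOD2 from −0.63 to 0.0681, TLR3 from −2.57 to 0.11, RIPK2 from −0.0036 to 0.21 and MALT1 from −0.0803 to 0.36. The promoter search was not run.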
